A study of Mus musculus with 12 samples.

Results

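The genes described here are the R-spondins Rspo1, Rspo2 and Rspo3, their receptors Lgr4, Lgr5 and Lgr6, and the ubiquitin ligases Znrf3 and Rnf43. They were taken by name and make up 8 of the 23513 genes in the files. Single-nucleus RNA sequencing was done on cortices of C57BL/6J mouse embryos at embryonic day 14, whose dams had received saline or ethanol (EtOH) once daily by intraperitoneal injection on the days before collection. Counts were available for 50550 nuclei of 11 embryos, 30349 nuclei from 5 Saline embryos and 20201 from 6 EtOH embryos, in the 25 clusters drawn by the study. The embryos came from 2 dams per group, named S1 and S2 or E1 and E2, and are called by dam and number (S1-1 is an embryo of dam S1). Sequencing libraries were made in 2 batches, the first with the litters S1 and E1 and the other with S2 and E2. The embryo S2-3 was not analysed here. Littermates were taken as independent embryos, so that p-values may be too small and differences between dams and treatment cannot be fully told apart.

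R-spondins are secreted proteins that strengthen Wnt signaling in cells that already receive a Wnt. Without them, ZNRF3 and RNF43 in the cell membrane mark Frizzled receptors for removal, and an R-spondin bound to an LGR receptor draws these ligases away, so that Frizzled stays at the surface. Znrf3 and Rnf43 are themselves known Wnt target genes in many tissues, and the cortical hem, at the dorsomedial edge of the cortex, is a known source of Wnts and Bmps for the developing hippocampus.

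Levels are given as CPM, the unique molecular identifiers (UMIs) of a gene added up for each embryo within a cluster and scaled to a fixed total over all genes. Clusters in which an embryo had fewer than 10 nuclei gave no value for that embryo. Libraries held 14078316 to 83061737 UMIs, and the median per nucleus was 6325 to 9051 in Saline embryos and 4071.5 to 6911 in EtOH embryos. A pair of Saline libraries stood apart. In S2-2, Cluster 21 held 4.64% of nuclei, against 0.748 to 1.25% in the other Saline embryos and 0.0789 to 1.55% in EtOH embryos. The library labelled Saline S2-4 was more alike to the EtOH libraries (mean Pearson r 0.995 of log2(CPM + 1) over 14391 genes) than to the other Saline libraries (mean r 0.985). Calls made with all embryos for the R-spondins, their receptors and the ligases are given with and without either library. Pathway calls by cluster are counted without each library, and values without it are given only for some.

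The gene coordinates are those of mm10 in the GENCODE M21 annotation. Rspo1 (ENSMUSG00000028871) lies at chr4:124986430-125009099 on the forward strand, Rspo2 (ENSMUSG00000051920) at chr15:43020794-43170826 on the reverse strand, and Rspo3 (ENSMUSG00000019880) at chr10:29452416-29535867 on the reverse strand. Lgr4 (ENSMUSG00000050199) lies at chr2:109917647-110014257 on the forward strand, Lgr5 (ENSMUSG00000020140) at chr10:115450311-115587780 and Lgr6 (ENSMUSG00000042793) at chr1:134983301-135105276, both on the reverse strand. Znrf3 (ENSMUSG00000041961) spans chr11:5276324-5444847 on the reverse strand and Rnf43 (ENSMUSG00000034177) chr11:87662722-87735539 on the forward strand. Rspo3 overlaps Gm20276 and Rnf43 overlaps 1110028F11Rik on the same strand, and how reads of the overlap were treated in counting was not checked. Rspo1, Rspo3, Lgr5 and Rnf43 also overlap genes on the opposite strand.

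All 8 genes were detected, and their depth differed widely. Znrf3 had 73243 UMIs in all, in 46.2% of nuclei, and Rspo3 had 58472 UMIs in 23.3% of nuclei. Rspo2 had 29374 UMIs in 7.91% of nuclei, and Lgr4 10541 UMIs in 12.5%. The others were sparse. Rnf43 had 2665 UMIs, Rspo1 2604, Lgr5 1340 and Lgr6 409, the last in 233 nuclei.

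The R-spondins were highest in Cluster 21, which the study named cortical hem radial glial cells (RGCs). All 11 genes of a hem list (Wnt2b, Wnt3a, Wnt8b, Lmx1a, Msx1, Bmp6, Bmp7, Zfp804b, Htr2c, Trpm3 and Sulf1) had their highest level in this cluster of 627 nuclei. So did 5 of 6 markers of the choroid plexus, the neighbouring epithelium that makes cerebrospinal fluid, with Ttr at 734 CPM and Otx2 at 244 CPM. The sixth, Kl, was at 1.77 CPM there. The lists were chosen with earlier results of these data known, so these peaks do not test the name of the cluster. The hem list is a name for its 11 genes, and not all of them need be particular to the hem. Because the clusters were drawn from the same nuclei, levels between clusters are described and not tested.

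Rspo2 had 76.0% of all its UMIs in the hem cluster. Its level in Cluster 21 was 4059 ± 729 CPM (SD, n = 10 embryos, range 3094 to 5222). The next level, 146 ± 64.9 CPM (n = 11), was in Cluster 14, the Cajal-Retzius cells, where the known markers Reln, Trp73, Lhx5 and Lhx1 all peaked. These neurons of the outermost layer arise in part from the hem. The step from Cluster 21 to Cluster 14 was 27.8-fold, was seen in 10 of 10 embryos and was the only one of 24 steps in the order of clusters that exceeded the larger SD of its pair.

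Rspo1 had a similar place and a second, lower peak. Cluster 21 stood at 335 ± 70.5 CPM (n = 10) and held 75% of Rspo1 UMIs, and RGC 2 (Cluster 20) stood at 26.1 ± 19.4 CPM (n = 9, range 0 to 54.4). The step between them was 12.9-fold. Both steps from Cluster 21 to Cluster 20 and from Cluster 20 to Cluster 14 (4.27 CPM) exceeded the larger SD. No cluster below these was above 3.52 CPM.

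Rspo3 was the broadest of the ligands. It was highest in Cluster 21 (1896 ± 331 CPM, n = 10), but only 18.2% of its UMIs lay there. Cajal-Retzius cells followed at 737 ± 216 CPM (range 360 to 1119), 2.57-fold lower. Among projection neurons (PN), the rostral subcortical PN of Cluster 4 had 304 ± 34.5 CPM, the callosal PN of Cluster 1 213 ± 34.6 CPM, the caudal subcortical PN of Cluster 16 212 ± 29.9 CPM and the callosal PN of Cluster 22 190 ± 56.9 CPM. Cluster 4 was above Cluster 1 in 11 of 11 embryos, and Cluster 1 did not differ from Cluster 16 beyond the spread. The lowest level was in migrating interneurons (Cluster 23, 11.5 CPM).

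In Cluster 20 the R-spondins did not move together between embryos. Rspo3 there averaged 425 ± 498 CPM (n = 9, range 22.8 to 1378). In EtOH embryo E2-1 Rspo3 reached 1378 CPM while Rspo2 stood at 1.64 CPM, and in Saline embryo S2-2 both were high, at 1097 and 366 CPM. The place of Cluster 20 in the order is therefore loose for both genes. Of the 77 Cluster 20 nuclei with an Rspo1 UMI, 61 had no Rspo2 UMI, whereas the 373 nuclei of Cluster 21 with an Rspo1 UMI all held Rspo2 as well. Rspo2 UMIs were found in 10.3% of all Cluster 20 nuclei and in 96.7% of all Cluster 21 nuclei. These counts therefore do not show that Rspo1 and Rspo2 keep to separate nuclei of Cluster 20.

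**Figure D1:**
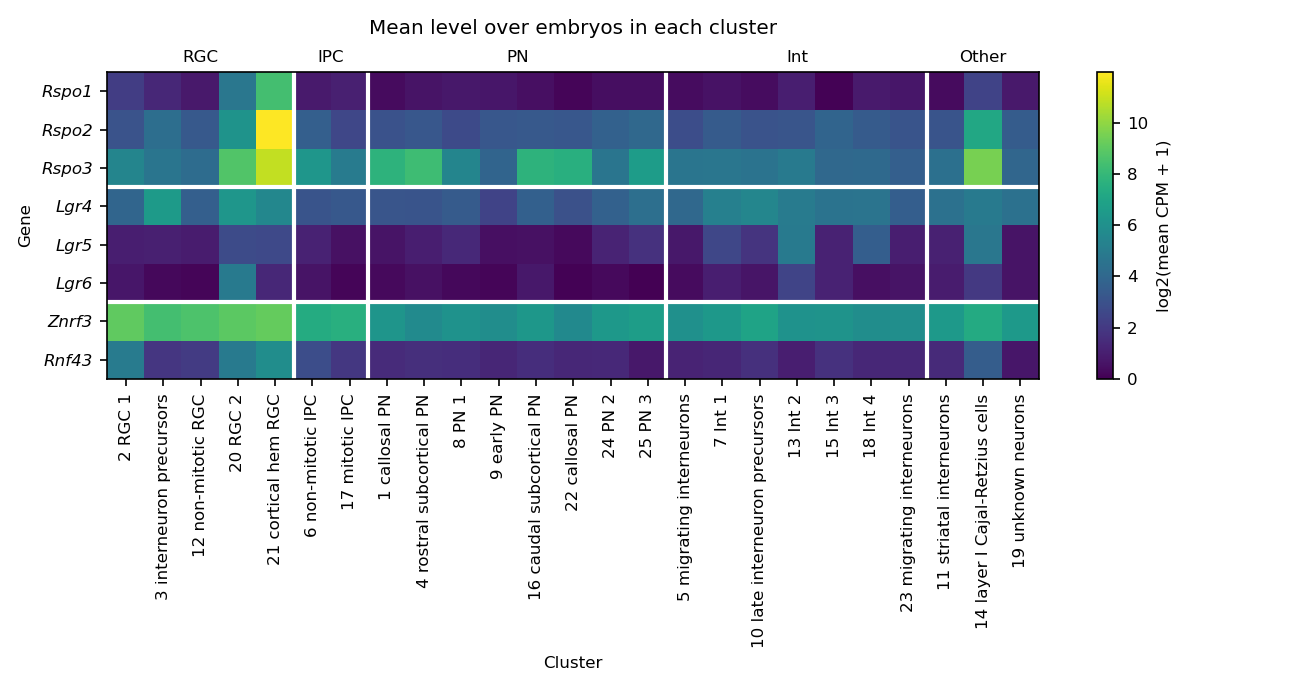
Mean level of each gene (rows) in each of the 25 clusters (columns, grouped by major cell type), as log2(mean CPM + 1) over the embryos with at least 10 nuclei. The hem cluster 21 is brightest for Rspo1, Rspo2 and Rspo3, Znrf3 is bright in all 5 RGC clusters (342 to 562 CPM), and Lgr5 and Lgr6 are low throughout.

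Unlike the ligands, none of the receptors had its highest level in the hem cluster. Lgr4, the most widely detected of them, was highest in the interneuron precursors of Cluster 3 (90.9 ± 21.8 CPM, n = 11) and in Cluster 20 (77.9 ± 28.0 CPM, n = 9), which did not differ beyond the spread. The hem cluster came next at 45.2 ± 17.1 CPM, close to the late interneuron precursors of Cluster 10 at 43.8 ± 11.2 CPM. The drop from Cluster 20 to Cluster 21 was the only step larger than the SD, and it held in 6 of 8 embryos. Lgr4 was lowest in early PN (Cluster 9, 4.38 CPM).

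Lgr5, a Wnt target and stem cell marker in other organs, had its highest mean levels in neurons. Cluster 13, an interneuron cluster (Int 2), had 28.7 ± 27.1 CPM with a range of 2.36 to 96.3 over 11 embryos, and Cajal-Retzius cells had 25.8 ± 15.2 CPM. Cluster 18 (Int 4) followed at 10.8 CPM and the hem cluster stood at 5.32 ± 5.41 CPM. None of the 24 steps exceeded the spread. The same was true of Lgr6, whose highest level was in Cluster 20 (30.1 ± 26.1 CPM, n = 9, range 0 to 76.9), 6.67-fold above Cluster 13 (4.52 CPM). Both genes rest on few UMIs, and a level near 0 in a cluster says that the gene was not detectable at this depth.

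Znrf3 followed the radial glia. Its 5 highest clusters were the 5 RGC clusters, Cluster 21 (562 ± 78.6 CPM), RGC 1 or Cluster 2 (532 ± 36.5 CPM), Cluster 20 (500 ± 110 CPM), the non-mitotic RGCs of Cluster 12 (394 ± 30.3 CPM) and the interneuron precursors of Cluster 3 (342 ± 13.9 CPM). The first 3 did not differ beyond the spread. Mitotic intermediate progenitors (IPCs, Cluster 17) came next at 191 ± 21.2 CPM, below Cluster 3 in 11 of 11 embryos. The callosal PN of Cluster 22 had the lowest level, 50.2 ± 13.5 CPM.

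Rnf43, which codes for the second ligase of the pair, was narrower. It was highest in Cluster 21 (58.4 ± 18.5 CPM, n = 10), 1.89-fold above Cluster 2 (30.9 ± 10.7 CPM) and higher there in 10 of 10 embryos. Cluster 20 stood level with Cluster 2 at 30.2 ± 16.8 CPM, and Cajal-Retzius cells had 10.7 ± 6.18 CPM. Unlike for Znrf3, the non-mitotic RGCs of Cluster 12 had a low Rnf43 level, 3.21 ± 2.34 CPM.

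RefSeq promoter windows (GRCm38.p6, 250 bases before to 50 after a start) were at hand for 4 of the 8 genes, Rspo1, Lgr4, Lgr6 and Rnf43. Rnf43 has 2 windows. The Rspo1 window and the first of Rnf43 are shown because both genes peaked in the hem cluster and their levels over the 25 clusters ran together (Pearson r = 0.86). They were searched on both strands for the TCF/LEF core, the letters CTTTG, which read CAAAG when seen from the opposite strand and belong to the sites that Wnt-responsive factors bind. They were also searched for the homeodomain core, the letters TAAT, or ATTA when seen from the opposite strand. Matches are in capitals.
Rspo1, chr4:124986180-124986479, forward strand: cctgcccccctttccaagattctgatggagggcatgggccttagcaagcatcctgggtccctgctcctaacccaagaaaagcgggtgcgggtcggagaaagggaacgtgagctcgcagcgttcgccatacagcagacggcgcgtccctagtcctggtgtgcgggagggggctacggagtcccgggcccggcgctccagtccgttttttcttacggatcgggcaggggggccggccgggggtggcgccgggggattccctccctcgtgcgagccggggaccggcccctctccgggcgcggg
Rnf43, chr11:87662837-87663136, forward strand: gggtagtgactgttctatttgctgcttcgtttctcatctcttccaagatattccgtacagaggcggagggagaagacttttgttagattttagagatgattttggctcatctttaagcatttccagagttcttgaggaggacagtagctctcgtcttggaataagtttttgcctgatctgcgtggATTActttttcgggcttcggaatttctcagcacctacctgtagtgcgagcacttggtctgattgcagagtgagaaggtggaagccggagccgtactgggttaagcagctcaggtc
Neither window shown held a TCF/LEF core, which 53.9% of 32851 RefSeq windows of this length hold. The first Rnf43 window held 1 homeodomain core, present in 58.0% of windows, and the Rspo1 window held none. The second Rnf43 window, chr11:87699647-87699946, held neither core. The Rspo1 window was rich in CG pairs, with 29 against a median of 7 over all windows. These matches describe letters in the windows and not binding.

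Within the hem cluster most nuclei held several of these transcripts. Rspo2 UMIs were found in 606 of 627 nuclei (96.7%, 91.5 to 100% between embryos) and Rspo3 UMIs in 589 (93.9%), and 575 nuclei held both. Znrf3 was found in 89.8% of the nuclei, Rnf43 in 29.2% and any of the 3 Lgr genes in 26.2%. An R-spondin, an Lgr and Znrf3 were found in the same nucleus in 23.4%. When each nucleus was reduced to 2000 UMIs, to set all at 1 depth, Rspo2 was still found in 93.2%, Rspo3 in 81.9%, Rspo1 in 36.3%, Znrf3 in 63.9% and any Lgr in 9.03%. At that depth Rspo2 was found in 19.2% of Cajal-Retzius nuclei and in 1.21 to 5.07% of nuclei of the other clusters, the highest of these being Cluster 20. How far free RNA gives these low shares was not tested.

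The genes with the most similar profile over the 25 clusters (Pearson r of mean log2(CPM + 1), which share libraries and clusters and carry no test) were named by a fixed rule of the 3 nearest. For Rspo2 they were Lmx1a, a transcription factor of the hem and roof plate (r = 0.97), Ttc21a and Ak9. Rspo1 was nearest to Maats1, Rbm47 and Wnt8b (r = 0.95 to 0.96). Rnf43 was nearest to Wnt8b (r = 0.96), Axin2, the common Wnt feedback gene (r = 0.93), and the Wnt inhibitor Wif1 (r = 0.93). Znrf3 was nearest to Stxbp3, Eri3 and Spata6 (r = 0.96 each).

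For Rspo3 the nearest was Gm48159 (r = 0.89), which overlaps Rspo3 on the other strand, so their reads may not be independent, then Rassf3 and Gm10373. Lgr4 was nearest to Ptch1, the hedgehog receptor (r = 0.87), Mest and Mxra7. Lgr5 was nearest to Cdkn1a (r = 0.76), Cacna2d2 and Zfp503, and Lgr6 to Wnt3 (r = 0.85), Cdh19 and Hpse2. Among the members, Rspo1 and Rspo2 were the closest pair (r = 0.91), Znrf3 and Rnf43 had r = 0.81, and Lgr4 and Rspo3 were nearly unrelated (r = 0.13).

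EtOH was next compared with Saline, first over all nuclei of an embryo. In this sum the number of nuclei of a cell type, such as the hem, and the level in each cannot be told apart. Rspo2 stood at 48.3, 51.8, 54.5, 216 and 55.3 CPM in Saline embryos S1-1, S1-2, S2-1, S2-2 and S2-4, and at 5.30 to 88.9 CPM (median 64.4) in EtOH embryos. S2-2, with its many hem nuclei, was far above all others, and E2-1, with 3 hem nuclei, far below. The other embryos of the groups overlapped.

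None of the 8 genes was called over all nuclei. A call means an adjusted p under 0.05 in edgeR's quasi-likelihood test (Benjamini-Hochberg over all genes tested) and a fold change above 1.25 or below 0.8, and 12.1% of all 18138 genes tested met it. DESeq2 and limma voom blocked on the dam called none either, where they called 14.9% and 12.3% of all genes. At an unadjusted p under 0.05 there was 1 of the 8, against 38.1% of all genes. This was Znrf3, which stood at 156, 165, 168, 246 and 163 CPM in Saline embryos and 125 to 175 CPM (median 152) in EtOH embryos, a log2 fold change of -0.31 (SE 0.11, adjusted p = 0.0578). Without S2-4 it was -0.36 (adjusted p = 0.0240), which met the threshold. Rspo3 had -0.21 (SE 0.22), Lgr4 -0.40 (SE 0.20) and Rnf43 -0.29 (SE 0.34), none past the threshold.

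Outside the hem cluster Rspo2 was called lower after EtOH, but the call depended on which embryos were included. The 5 Saline embryos S1-1, S1-2, S2-1, S2-2 and S2-4 had 14.3, 10.7, 20.6, 52.5 and 10.8 CPM, and the 6 EtOH embryos had 4.82 to 13.5 CPM (median 8.96). The groups overlapped, S1-2 and S2-4 lying within the EtOH range, and S2-2 was highest of all. The log2 fold change was -1.30 (SE 0.42, edgeR adjusted p = 0.0480), the only call among the 8 genes, against 12.5% of all genes tested outside Cluster 21 and 3.64% called lower. A single call among 8 genes is about the share called over all genes. Exact permutation of the embryos (462 splits, both tails) gave p = 0.0173 for the mean CPM, and p = 0.0238 when embryos were exchanged only within batches. The smallest p these splits allow is 0.00216, and 8 genes were compared. The means were 12.5 CPM in Saline and 10.3 CPM in EtOH embryos of batch 1, and 28.0 and 8.55 CPM in batch 2.

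This call was lost when any embryo other than S2-4 was left out, with adjusted p from 0.0595 to 0.0918, and S2-2 set its size. Of all genes tested, 2.24 to 11.1% were called in those fits, against 12.5% with all embryos. Without S2-2 the Rspo2 log2 fold change was -0.73 (adjusted p = 0.0853) and the exact permutation p was 0.0571, and without S2-4 it was -1.48 (adjusted p = 0.0252). It was also lost with the batch as a block (adjusted p = 0.0576), library sizes only (0.0701), no filter on low counts (0.0711), thinning (0.0833), limma voom blocked on the dam (0.123) and sums per dam (0.130), and it held with RLE size factors (0.0458) and DESeq2 (0.0169). All changes were below 0. S2-2 had the highest Rspo2 level in 17 of the 24 clusters outside Cluster 21 and the highest Rspo1 and Rspo3 level in 12 each. It had Rspo2 UMIs in 24.5% of its nuclei outside the hem cluster, 750 of 1036 with 1 UMI, against 3.45 to 9.30% in the other Saline embryos and 1.87 to 3.63% in EtOH embryos. Levels outside Cluster 21 were 1.65% of those inside it for Rspo2 in S2-2 and 1.35% for Rspo1. In the other embryos with 10 or more hem nuclei these were 0.166 to 0.518% for Rspo2 and 0.151 to 0.874% for Rspo1. The same ratio was highest in S2-2 for 5 of the 11 hem genes (Bmp6, Bmp7, Lmx1a, Msx1 and Wnt8b) and in another embryo for the other 6. Summed markers of other cell types outside Cluster 21 were also set side by side, without a test, and their ranges overlapped between the groups. The 6 choroid plexus markers summed to 13.9 to 50.8 CPM (median 20.7) in Saline and 7.43 to 29.5 CPM (median 9.10) in EtOH embryos, with S2-2 highest. The 5 markers of the meninges summed to 4.74 to 7.61 CPM in the other Saline and 2.46 to 6.85 CPM in EtOH embryos, and S2-2 lay above all of them. The 5 microglia markers went the other way, with 13.7 to 31.5 CPM (median 15.3) in Saline and at least 27.0 CPM (median 34.4) in the EtOH embryos. S2-4, at 31.5 CPM, was the one Saline embryo within the EtOH range. Nearly all of this sum came from P2ry12 and Cx3cr1, and over all nuclei C1qa had 36 UMIs and C1qb 54. The sums overlapped as well for endothelium (medians 11.2 and 9.35 CPM), pericytes (9.33 and 9.59), thalamus (386 and 351) and oligodendrocyte precursors (3.31 and 2.40). The part of any of these cells, or of free RNA from hem nuclei, in the Rspo2 difference was not tested.

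**Figure D2:**
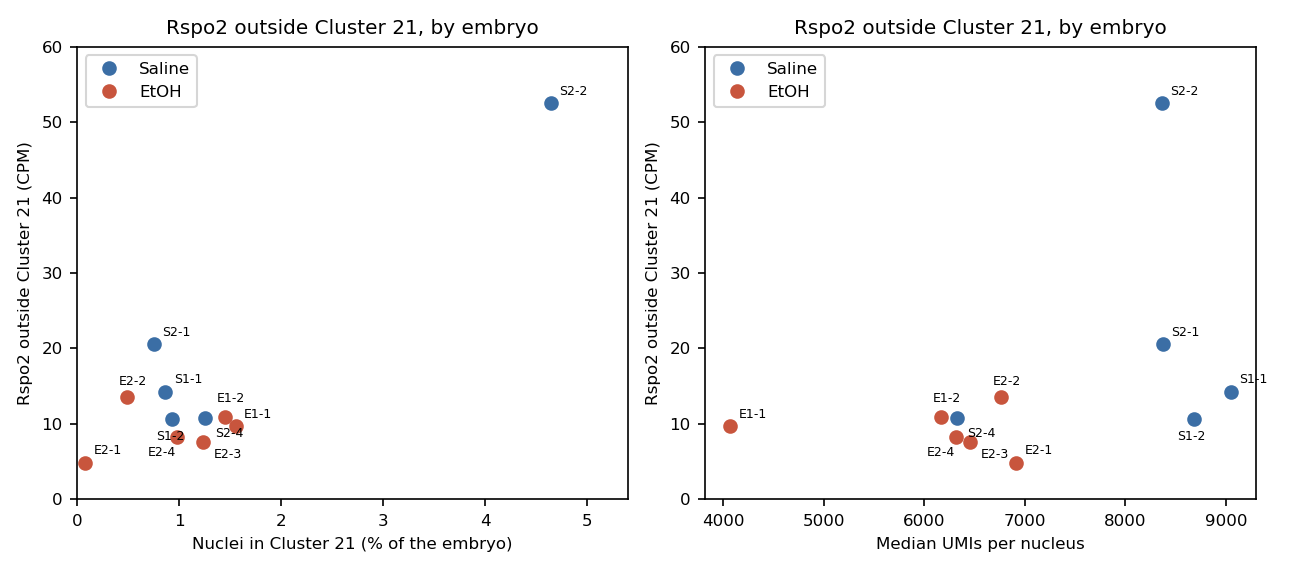
Rspo2 level outside Cluster 21 (CPM, y axis) for each of the 11 embryos against the share of its nuclei in Cluster 21 (left, %) and its median UMIs per nucleus (right). Saline embryo S2-2 lies alone at 52.5 CPM and 4.64% hem nuclei, and the other 10 embryos lie between 4.82 and 20.6 CPM.

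Most hem genes outside Cluster 21 also had values below 0. Of the 11 genes 10 were tested there and 8 had a log2 fold change below 0 (Wnt8b -0.99, Bmp6 -0.61, Sulf1 -0.49, Bmp7 -0.39, Htr2c -0.25, Lmx1a -0.19, Zfp804b -0.09 and Trpm3 -0.01), none of them called. Among all embryos S2-2 had the highest level of Wnt8b, Bmp6, Bmp7, Htr2c, Lmx1a and Trpm3 there. It was not highest for Sulf1 or Zfp804b. Lmx1a had 14.1 CPM in S2-2, 2.96 to 4.69 CPM in the other Saline and 1.60 to 11.4 CPM in EtOH embryos. For Bmp6 these were 8.08, 3.41 to 4.72 and 1.79 to 3.93 CPM. Changes without S2-2 are not given for this list. Wnt2b rose (0.48, adjusted p = 0.0193), and Wnt3a had 0.76 (adjusted p = 0.0755). The median of the list was -0.22, against 0.01 over all genes tested there. The summed level of the list, 449 to 719 CPM in Saline and 435 to 696 CPM in EtOH embryos, is mostly Trpm3 and Zfp804b, and Trpm3 was widely expressed, with a median of 441 CPM over the clusters.

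The other R-spondins outside the hem cluster did not pass. Rspo1 stood at 0.753, 1.03, 2.93, 4.41 and 0.847 CPM in the Saline embryos and at 0.633 to 1.44 CPM (median 0.837) in EtOH embryos, with a log2 fold change of -1.15 (SE 0.49, adjusted p = 0.104) and an exact permutation p of 0.152. Without S2-2 the Rspo1 value was -0.69 (adjusted p = 0.230), and without S2-4 it was -1.35 (adjusted p = 0.0443). DESeq2 gave -1.17 (adjusted p = 0.0344), which met the threshold. The batches differed in direction, with Rspo1 means of 0.893 CPM in Saline and 1.19 CPM in EtOH embryos of batch 1 and of 2.73 and 0.804 CPM in batch 2. Rspo3 stood at 106, 92.3, 85.5, 195 and 101 CPM in Saline and 90.0 to 129 CPM (median 112) in EtOH embryos, with a log2 fold change of -0.12 (SE 0.20). That of Rspo3 turned to 0.12 without S2-2.

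In the hem cluster itself the levels leaned the other way. Rspo2 had 3999, 3304, 3978, 3181 and 3094 CPM in the Saline embryos and 3948 to 5222 CPM (median 4573) in the 5 EtOH embryos with at least 10 hem nuclei, where E1-2 alone lay below the highest Saline embryos. The log2 fold change was 0.39 (SE 0.14, edgeR adjusted p = 0.224), and the two-sided exact permutation test over 252 splits gave p = 0.0238 for the mean CPM. Rspo1 had 268, 256, 335, 327 and 267 CPM in Saline and 311 to 472 CPM (median 382) in EtOH embryos, a log2 fold change of 0.40 (SE 0.14, adjusted p = 0.214) and an exact permutation p of 0.0476. With embryos exchanged only within batches the exact permutation p was 0.0333 for Rspo2 and 0.05 for Rspo1, which then missed the threshold. Neither gene was called, and 0.0156% of the 6390 genes tested in Cluster 21 were, with 12.4% at an unadjusted p under 0.05.

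Without S2-2 the exact permutation p for Cluster 21 was 0.0317 for Rspo2 and 0.0476 for Rspo1, and without S2-4 it was 0.0317 and 0.0794. Rspo3 had 1937, 1480, 2358, 1512 and 1529 CPM in Saline and 1677 to 2264 CPM (median 2004) in EtOH embryos (exact permutation p = 0.198). The choroid plexus list summed to 1064 to 2325 CPM in Cluster 21 of Saline and 557 to 1865 CPM of EtOH embryos, and the hem list to 17993 to 27893 and 12154 to 24377 CPM. The sum of the hem list hides unlike members. Of its 11 genes 8 had a log2 fold change above 0 in Cluster 21 (Wnt3a 0.75, Wnt2b 0.68, Zfp804b 0.46 and Lmx1a 0.43), the list median being 0.35, while the abundant Htr2c and Trpm3 had -1.36 and -0.61. None was called. Among embryos with at least 10 hem nuclei, the choroid sum was highest in S1-2 (2325 CPM) and lowest in E1-2 (557 CPM). Htr2c (6772 and 483 CPM) and Trpm3 (11008 and 2406 CPM) had the same highest and lowest embryos. Whether Htr2c and Trpm3 mark hem or choroid cells in this cluster was not tested. The part of this makeup in the R-spondin values was not tested.

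**Figure D3:**
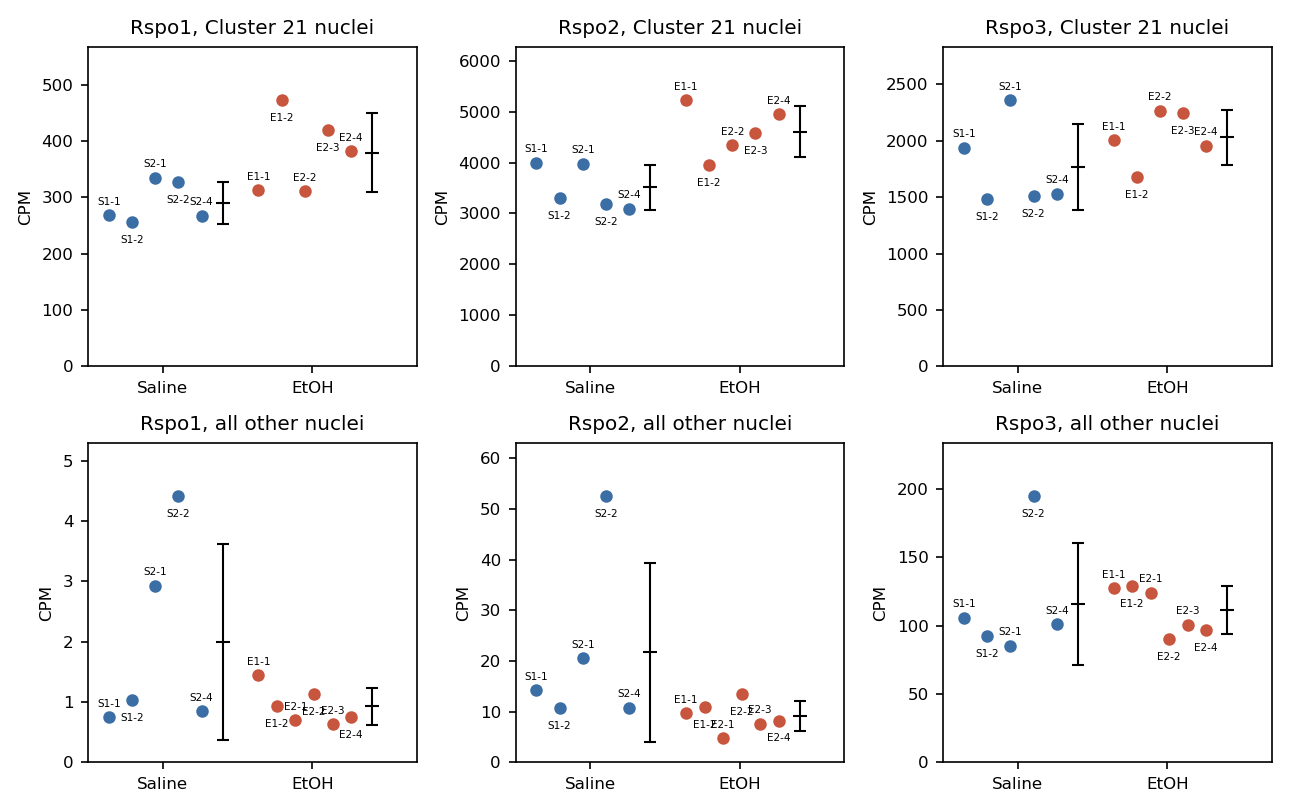
Level (CPM) of Rspo1, Rspo2 and Rspo3 in each embryo, in Cluster 21 (top, embryos with at least 10 hem nuclei) and in all other nuclei (bottom), with the group mean and SD as black bars. In Cluster 21 the EtOH embryos lie at or above most Saline embryos for Rspo2 (median 4573 against 3304 CPM), and outside it S2-2 is the highest point of all 3 genes.

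The difference of these effects was tested for each gene as log2(CPM + 1) in Cluster 21 minus that in the other nuclei of the same embryo, compared between the groups by a two-sided exact permutation test. The mean of this contrast for Rspo2 was 7.53 over Saline and 8.73 over EtOH embryos, a gain of 1.20 after EtOH (p = 0.00794, exact permutation). For Rspo1 it was higher by 0.83 (p = 0.0476, exact permutation) and for Znrf3 by 0.40 (p = 0.0159, exact permutation). Exact permutation within batches gave p = 0.0167 for Rspo2, 0.05 for Rspo1, no longer under the threshold, and 0.0333 for Znrf3. For the other 5 genes p lay between 0.135 and 0.675 by the same exact permutation test. These p-values are raw, with 8 genes compared. For Znrf3 the other nuclei pool RGC clusters at 342 to 532 CPM with neurons down to 50.2 CPM. Its level there thus also depends on the shares of cell types in each embryo, and their part was not tested. Without S2-2 the differences were 0.79 for Rspo2 (p = 0.0238), 0.62 for Rspo1 (p = 0.0873) and 0.35 for Znrf3 (p = 0.0317), and without S2-4 they were 1.33, 0.94 and 0.41, all by exact permutation tests.

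Cluster by cluster, the 8 genes had enough counts for 89 fits, Znrf3 in all 25 clusters, Rspo3 in 22, Lgr4 in 19, Rspo2 in 12, Rnf43 in 5, Lgr5 in 3, Rspo1 in 2 and Lgr6 in 1. None of the 89 was called, where 0.792% of all 217253 fits were called (0.35% lower and 0.442% higher). DESeq2 called 6 of these fits, where it called 2.61% of all fits, and limma voom blocked on the dam called 1, where it called 2.97%. At an unadjusted p under 0.05 there were 22, against 17.4% of all fits. Of these 19 were lower after EtOH, against 7.83% of all fits, and 3 were higher. The fits share the same embryos, so these counts are not independent and carry no test. The filter on low counts can also admit a gene through the group where it is higher.

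Rspo2 accounted for 5 of the 19, in callosal PN (Cluster 1), RGC 1 (Cluster 2), non-mitotic IPCs (Cluster 6), striatal interneurons (Cluster 11) and the interneurons of Cluster 15. The smallest adjusted p of all 89 was in Cluster 15 (log2 fold change -1.56, SE 0.36, adjusted p = 0.0600), where the Saline embryos had 24.4, 9.90, 20.2, 34.9 and 21.8 CPM and the EtOH embryos 2.99 to 13.6 CPM. S1-2 was the one Saline embryo within the EtOH range. Rspo3 accounted for 6, in Clusters 3, 6, 8, 9, 13 and 18, and was nearest to the threshold in the interneuron precursors of Cluster 3, with 31.2, 19.2, 42.2, 67.4 and 17.5 CPM in Saline and 10.3 to 17.2 CPM in EtOH embryos (log2 fold change -1.30, adjusted p = 0.0793). There the groups did not overlap.

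Znrf3 accounted for 7, in Clusters 1, 4, 5, 8, 9, 16 and 23, none an RGC cluster. In the caudal subcortical PN of Cluster 16 it had 88.0, 115, 110, 104 and 72.7 CPM in Saline and 52.4 to 78.0 CPM in EtOH embryos (log2 fold change -0.56, SE 0.15, adjusted p = 0.0901), with S2-4 inside the EtOH range. The last of the 19 was Lgr4 in non-mitotic IPCs (Cluster 6, log2 fold change -0.80, adjusted p = 0.0958). The 3 higher values were Rspo1 and Rspo2 in the hem cluster and Lgr5 in the interneurons of Cluster 7 (1.03, SE 0.44, adjusted p = 0.246).

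Leaving out S2-4 changed these counts more than any other library. Without it 15 of the member fits were called, all lower after EtOH, among them Rspo2 in Clusters 1, 2, 5, 6, 11 and 15, Rspo3 in Clusters 3, 6, 8 and 9, Znrf3 in Clusters 1, 4, 5 and 16, and Lgr4 in Cluster 6. Calls over all genes and clusters rose with them, from 1721 to 19059, of which 5658 were lower. The background against which the member calls are read rose too, to 8.78% of all fits.

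**Figure D4:**
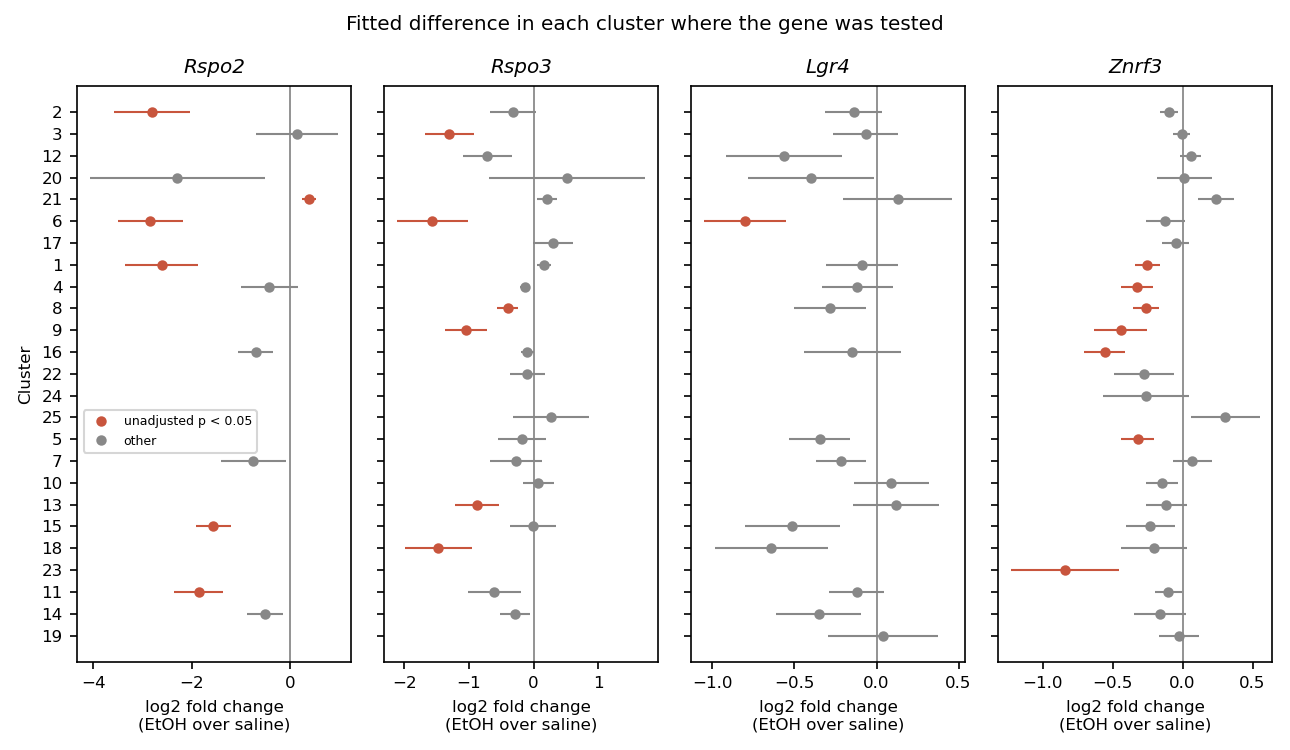
Log2 fold change of EtOH over Saline (points, with the SE as bars) in each cluster where Rspo2, Rspo3, Lgr4 or Znrf3 was tested, with an unadjusted p under 0.05 in red and the other fits in grey. Most red points lie left of 0, and Rspo2 in Cluster 21 (0.39) is the exception.

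Summed by major cell type, the only call among the members was Znrf3, which was lower in PN after EtOH. Of all 14604 genes tested in PN 6.53% were called (2.36% lower), and 3.75% over the 5 types. A single call among so few members cannot be told apart from these shares. In RGCs 3.79%, in IPCs 1.52%, in interneurons 4.83% and in the other cells 1.25% of genes were called, and no member was. The Saline embryos had 68.6, 73.5, 71.0, 88.2 and 61.7 CPM and the EtOH embryos 56.4 to 63.1 CPM (median 59.4). S2-4 lay within the EtOH range and the other 4 Saline embryos above it. The log2 fold change was -0.33 (SE 0.074, edgeR adjusted p = 0.0268), a fall of 1.26-fold, just past the threshold of 1.25. By exact permutation p was 0.00649, and the Saline and EtOH means were 71.1 and 59.7 CPM in batch 1 and 73.6 and 59.5 CPM in batch 2.

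Without S2-4 the Znrf3 change in PN was -0.39 (adjusted p = 6.1e-05), and without S2-2 it was -0.27 (adjusted p = 0.0505). It was lost as well with library sizes only (-0.28) and limma voom blocked on the dam (-0.32), both short of the fold threshold, after thinning (adjusted p = 0.0643) and with sums per dam (adjusted p = 0.131). The call was also lost without any of 6 other embryos (S1-1, S1-2, S2-1, E1-2, E2-2 or E2-3), with adjusted p from 0.0508 to 0.0747 and changes of -0.31 to -0.35. Calls over all genes and the 5 types fell in these fits too. They made up 0% without S1-2, S2-1 or E2-2 and 0.00148% without S1-1. The share was 0.169% without E2-3, 0.403% without E1-2 and 1.24% without S2-2, against 3.75% with all embryos. In radial glia, where Znrf3 is highest, it had 434, 447, 395, 550 and 441 CPM in Saline and 432 to 484 CPM (median 469) in EtOH embryos, a log2 fold change of -0.05 (SE 0.072, adjusted p = 0.700). Whether the effects in PN and radial glia differ was not tested. Outside Cluster 21 Znrf3 had -0.30 (SE 0.094, adjusted p = 0.0407), short of the fold threshold. It met both thresholds without S2-4 (-0.35, adjusted p = 0.0103) or without E1-1 (-0.33, adjusted p = 0.0348). Of all genes 23.5% and 11.1% were called in these fits. Without S2-2 the Znrf3 value was -0.20 (adjusted p = 0.0724). With all embryos it was -0.33 in PN, -0.22 in interneurons, -0.13 in the other cells, -0.12 in IPCs and -0.05 in RGCs. The value outside Cluster 21 also depends on the shares of these cell types in each embryo, and their part was not tested.

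Rspo2 came near the threshold in IPCs (log2 fold change -2.70, SE 0.62, adjusted p = 0.0532), where the Saline mean was 16.9 ± 14.3 CPM (range 4.77 to 41.0, n = 5) and the EtOH mean 2.55 ± 1.04 CPM (range 1.18 to 3.71, n = 6). The groups did not overlap. Without S2-2 the IPC value was -2.11 (adjusted p = 0.0805), and without S2-4 it was -2.94 (adjusted p = 0.00332), which met the threshold. In PN the value was -1.37 (adjusted p = 0.0714), -0.85 without S2-2 (0.0950) and -1.54 without S2-4 (0.0349). In interneurons it was -1.57 (adjusted p = 0.121), -1.04 without S2-2 (0.214), -1.73 without S2-4 (0.0692) and -2.45 without E2-2 (0.0792). Lgr4 in IPCs had -0.69 (SE 0.22, adjusted p = 0.0825), with 9.94 ± 2.19 CPM in Saline and 6.49 ± 1.65 CPM in EtOH embryos, and without S2-4 the same change had an adjusted p of 0.0456. Rspo3 in IPCs had -1.24 (adjusted p = 0.150), -0.86 without S2-2 (0.270) and -1.49 without S2-4 (0.0158). Without S2-4 there were thus 5 member calls by cell type, Rspo2, Rspo3 and Lgr4 in IPCs and Rspo2 and Znrf3 in PN, where 16.9% of all fits were called. With all embryos DESeq2 called Rspo2 in IPCs (adjusted p = 2.5e-04), interneurons (0.0355) and PN (0.0231), where it called 8.02% of all fits. Sums per dam called Rspo2 in IPCs (0.0252) and interneurons (0.0266) and Rspo3 in IPCs (0.0159), where 1.23% were called. The other alternatives with all embryos called no Rspo2 fit by cell type.

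**Figure D5:**
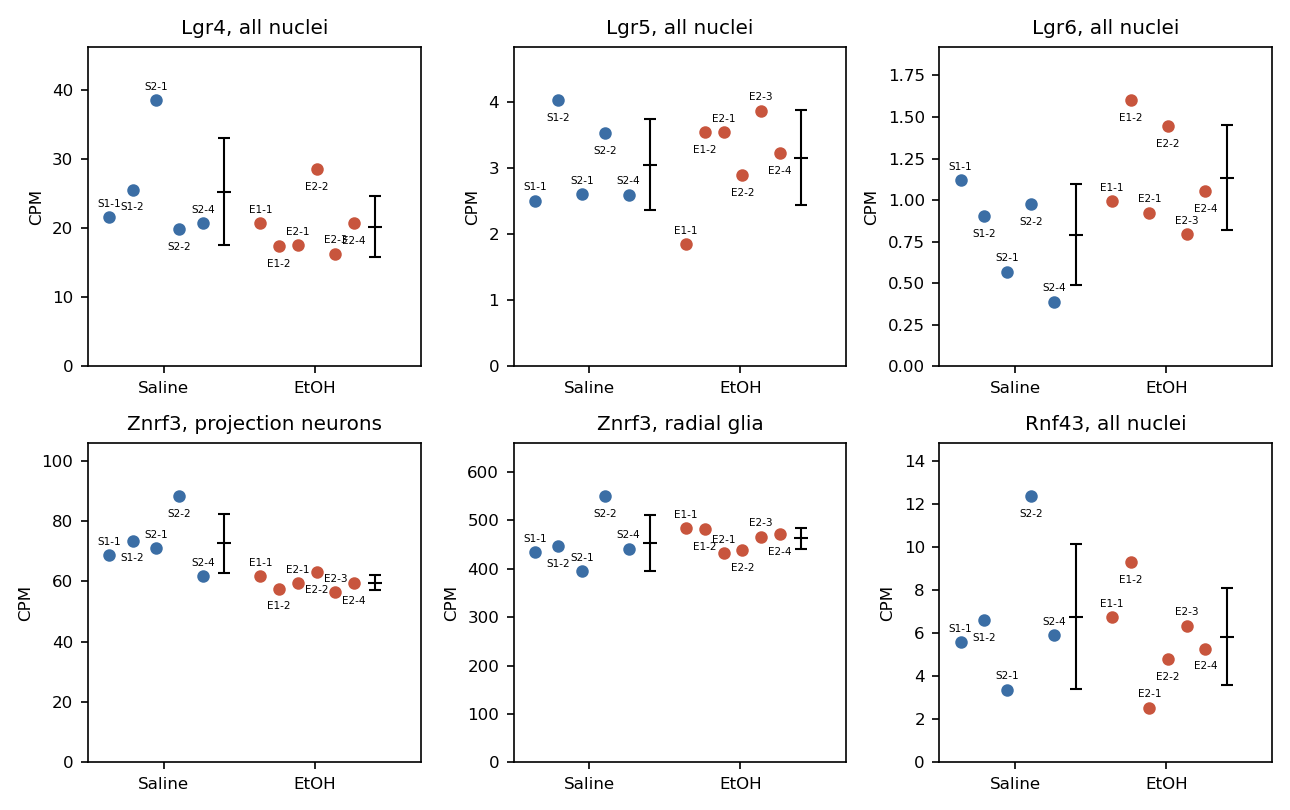
Level (CPM) in each embryo of Lgr4, Lgr5, Lgr6 and Rnf43 over all nuclei and of Znrf3 in projection neurons and in radial glia, with the group mean and SD as black bars. Znrf3 in projection neurons is at 56.4 to 63.1 CPM in EtOH and 61.7 to 88.2 CPM in Saline embryos, and the groups overlap in all panels.

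The receptors and Rnf43 were not called over all nuclei, with a log2 fold change of -0.40 (SE 0.20) for Lgr4. Lgr4 stood at 21.6, 25.6, 38.5, 19.9 and 20.7 CPM in the Saline embryos and at 16.3 to 28.5 CPM (median 19.1) in EtOH embryos, and S2-1 was the high one. Lgr5 stood at 2.50 to 4.02 CPM in Saline and 1.85 to 3.86 CPM in EtOH embryos, with a log2 fold change of -0.01 (SE 0.19). Lgr6 was at 0.389 to 1.12 CPM in Saline and 0.796 to 1.60 CPM in EtOH embryos (0.43, SE 0.29, adjusted p = 0.293). Rnf43 stood at 3.39 to 12.4 CPM in Saline and 2.55 to 9.32 CPM in EtOH embryos. The groups overlapped for all 4 genes.

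The share of nuclei with a UMI was compared over all nuclei at 1 depth, 2000 UMIs per nucleus. For the R-spondins this share also depends on the number of hem nuclei. For Rspo2 it was 3.17, 2.83, 3.40, 11.9 and 2.65% in the Saline embryos and 0.712 to 3.04% (median 2.02%) in EtOH embryos (two-sided exact permutation p = 0.00866, with p = 0.0524 without S2-2 and p = 0.00952 without S2-4). For Znrf3 the means were 24.4% and 20.7% (exact permutation p = 0.0325, with p = 0.0952 without S2-2 and p = 0.0286 without S2-4). For Lgr6 the share was 0.107 ± 0.0399% in Saline (n = 5) and 0.225 ± 0.0705% in EtOH embryos (n = 6), with all 6 EtOH embryos above all 5 Saline embryos (exact permutation p = 0.00649, and p = 0.00952 without S2-2 or without S2-4). At 1000 UMIs per nucleus none of the 8 genes passed, these 3 included. The Lgr6 difference rests on 2 to 13 nuclei per embryo, and at the deposited depth the shares were 0.427% and 0.531% (exact permutation p = 0.223).

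At the deposited depth, where Saline nuclei were deeper, the Znrf3 share fell from 51.4% of nuclei in Saline embryos to 39.3% after EtOH, and the Rspo2 share from 11.9% to 3.61% (exact permutation p = 0.00433 for each). That of Lgr4 was 14.3% and 9.49% (exact permutation p = 0.0238). The differences were smaller once depth was set equal. The other 5 genes had exact permutation p-values of 0.145 to 0.803 at equal depth.

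Other genes of the pathway were taken from lists of 82 genes, of which 57 could be tested in at least 1 cluster. Of their 835 fits 2 were called higher and 11 lower after EtOH, 1.56% against 0.792% of all fits. The list of Rspo4 with syndecans and glypicans, the heparan sulfate proteoglycans of the cell surface, gave 6 of the 11 in 109 fits. Gpc3 fell in callosal PN (Cluster 1, -1.99, adjusted p = 0.0256) and in migrating interneurons (Cluster 5, -1.35), and Gpc6 fell in Clusters 3, 5 and 16 (-0.34 to -0.99). Gpc4 fell in Cluster 11 (-0.67, adjusted p = 0.0450).

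Of the transducers Tcf7l1, a TCF factor that mostly represses, fell in Clusters 1 and 8 (-1.41 and -1.23). Among receptors Fzd3 fell in Cluster 8 (-0.35, adjusted p = 0.0423), and among secreted antagonists Sfrp1 in Cluster 8 (-0.69) and Dkk2 in Cluster 4 (-2.38, adjusted p = 0.0495). Of the ligands Wnt7b rose in callosal PN (Cluster 1, 0.46, adjusted p = 0.0403) and Wnt2b in interneuron precursors (Cluster 3, 1.21, adjusted p = 0.0297). None of the 80 fits of the target and feedback genes, such as Axin2, was called, with a median log2 fold change of 0.08.

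Over all nuclei 67 genes of the lists were tested and 7 called (10.4%, against 12.1% of all genes), with Wnt4, Wnt7b and Sdc3 higher (0.43, 0.52 and 0.38) and Gpc3, Dkk2, Sfrp4 and Sdc2 lower (-0.68, -0.53, -0.72 and -0.33). Outside the hem cluster the count was 4 higher and 5 lower of 65. These shares lie near those of all genes. The pathway calls were unstable, as were the calls over all genes. With 1 embryo left out the count over the clusters was 0 to 61, where 0.0408 to 8.78% of all fits were called. After thinning it was 3, where 0.664% of all fits were called. Without S2-2 the adjusted p stayed under 0.05 for 4 of the 13 cluster calls, Gpc3 and Tcf7l1 in Cluster 1 (-1.62 and -1.18), Wnt2b in Cluster 3 (1.18) and Gpc6 in Cluster 5 (-0.53), and without S2-4 for all 13. The direction held for all 13 whichever embryo was left out. Of the 7 calls over all nuclei, Wnt4 was lost without S2-2 (adjusted p = 0.0518) and the other 6 kept an adjusted p under 0.05. Over the 11 fits with 1 embryo left out, Wnt4 stayed called in 1 and Wnt7b in 2. Dkk2, Sdc2 and Sfrp4 stayed called in 5 each, Gpc3 in 9 and Sdc3 in 11.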

How the data were processed

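Nuclei were isolated from frozen cortices and sequenced with the 10x 3' v3.1 chemistry. Per the labels and the submitters' processing notes, the authors aligned and counted reads with Cell Ranger on mm10, filtered nuclei, normalized with SCTransform, integrated with Harmony and clustered. The deposited values used here were raw UMI counts per gene and nucleus, in 275 files, 1 for each embryo and cluster, with the authors' cluster names. No doublet caller was run, and the strand setting of the counting is not given in the sources used here. Of 23513 gene names 23125 (98.3%) matched GENCODE M21. Barcode sequences shared by more than 1 library numbered 314, in 638 nuclei.

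Counts were summed per embryo and cluster, cell type or set, leaving out the 9 embryo and cluster pairs under 10 nuclei. EtOH was compared with Saline by edgeR 4.0.16 (quasi-likelihood, TMM, its filter on low counts, R 4.3.3), Benjamini-Hochberg adjusted over all genes of a fit. Alternative tools were DESeq2 1.42.0 and voom of limma 3.58.1, the latter blocked on the dam by an estimated correlation among littermates. CPM, shares and differences of effect were compared by exact permutation over embryos in Python 3.11.15 (NumPy 2.4.6, SciPy 1.17.1, pandas 2.3.3, matplotlib 3.10.9), with raw p-values. Shares were taken after thinning nuclei to 2000 UMIs, which left out 177 Saline and 210 EtOH nuclei. Alternatives were the scaling, the filter, the batch as a block, sums per dam, thinning and leaving out each embryo. The fits were also run on simulated counts with known changes, and the outcome is not given here. Counting intervals are not given, since spread between embryos was used throughout.

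The members and lists were chosen with earlier results of these data known. The text names all 8 members, the 3 genes nearest to each with at least 200 UMIs, all hem genes outside Cluster 21 and, of the pathway lists, called genes up to 5 per direction by adjusted p. Other called pathway genes were named after their values were seen.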

Additional observations from a re-analysis of the deposited data

Results flagged for a closer look

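Saline embryo S2-2 was far from the other Saline embryos in 4 measures. Cluster 21 held 4.64% of its nuclei (others 0.748 to 1.25%), and outside that cluster it had 52.5 CPM of Rspo2 (others 10.7 to 20.6), 195 CPM of Rspo3 (others 85.5 to 106) and 226 CPM of Znrf3 (others 153 to 166). Among EtOH embryos E2-2 stood apart for Lgr4, with 28.2 CPM outside Cluster 21 (others at most 20.5) and 79.0 CPM in it (others 36.6 to 45.7). E1-1 had 14.0 CPM of Lgr5 in Cluster 21, where the others had 0 to 3.66 CPM. In all 7 of 36 groups of embryos tested held such a value, 4 of them through S2-2. Chance flags about 1 in 20 groups, but these groups are overlapping measures on the same 11 embryos, so the 7 cannot be set against that rate.

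By exact permutation of the embryos the EtOH effect in Cluster 21 minus that outside it, on the log2 scale, was 1.20 for Rspo2 (p = 0.00794), 0.83 for Rspo1 (p = 0.0476) and 0.40 for Znrf3 (p = 0.0159). Without S2-2 the exact permutation p was 0.0238, 0.0873 and 0.0317, and within batches 0.0167, 0.05 and 0.0333, so that the Rspo1 difference passed in neither. The part of cell type shares among the other nuclei was not tested.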

How the results depend on the processing

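The count of members called over the 25 clusters was 0. It was 6 with DESeq2 (2.61% of all fits called) and 1 with limma voom blocked on the dam (2.97%). With no filter on low counts it was 19 (2.07% of 519300 fits), and with the batch as a replicate block 1 (0.419%). Counts summed per dam gave 9 (0.721%) and thinning to 2000 UMIs gave 1 (0.664%). With 1 embryo left out it was 0 to 15 (0.0408 to 8.78%). Over all nuclei it was 0, and 0 to 1 with 1 embryo left out. Over the cell types it was 1 (3.75% of all fits called), and 0 with library sizes only (1.23%), limma voom (6.76%) or thinning (1.21%). It was 4 with DESeq2 (8.02%), 3 with sums per dam (1.23%) and 0 to 5 with 1 embryo left out (0 to 16.9%). Outside Cluster 21 it was 1 (12.5%), and 0 with the replicate block (11.6%) or thinning (5.97%). With 1 embryo left out it was 0 to 3 there (2.24 to 23.5%). Pathway calls were 13 (0.792% of all fits called), 4 with library sizes only (0.377%), 28 with DESeq2 (2.61%) and 26 with limma voom (2.97%). They were 63 with no filter (2.07%), 7 with the replicate block (0.419%) and 3 after thinning (0.664%). With 1 embryo left out they were 0 to 61 (0.0408 to 8.78%). Shares passed for 3 genes, for 0 at 1000 UMIs and for 1 to 3 with 1 embryo left out. The CPM outside Cluster 21 passed exact permutation for 1 gene, for 2 without Clusters 14 and 20 as well and for 0 to 2 with 1 embryo left out. Among the fits with 1 embryo left out, the highest counts of calls (15, 1, 5, 3 and 61) came without S2-4. There 8.78% of all fits over clusters, 16.9% over cell types and 23.5% outside Cluster 21 were called. The cause was not tested.

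Some values near 0 turned sign. Lgr4 in Cluster 21 (0.13) was -0.025 with sums per dam and -0.10 to 0.33 with 1 embryo left out. Lgr5 outside Cluster 21 (0.00) was -0.0096 with RLE size factors, -0.011 with DESeq2, -0.022 with no filter, -0.049 per dam, -0.092 after thinning and -0.072 to 0.14 with 1 embryo left out. Rspo3 outside it ranged from -0.21 to 0.12 and Rnf43 from -0.43 to 0.0050. The samples share batch numbers and not animals, so the block is the batch.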
